A study of Macaca fascicularis with 18 samples.

Results

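The genes described here had high transcript levels in the cerebral cortex (brain) and in the kidney cortex (kidney) of cynomolgus monkeys and low levels in the liver. They were selected on these values: the medians over the brain samples and over the kidney samples each had to reach 40 RPKM, each had to be at least 8 times the liver median, and the brain and kidney medians had to lie within 8-fold of each other. RPKM scale the reads on a gene to its length in kilobases and to the size of the library, so that levels of genes of different length can be set side by side. Of the 29324 Ensembl genes of the table, 46 met all conditions, which is 0.157% of them. Both levels of at least 40 RPKM were met by 1095 genes, and the 46 members made up 4.20% of these. The other 1049 abundant genes served for comparison.

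The samples came from 2 female cynomolgus monkeys (Macaca fascicularis) of about 10 years, named A1 and A2. The paper names no experimental treatment. It states that the animals were anaesthetized with ketamine and midazolam and then euthanized with pentobarbital. Of each animal and tissue 3 samples were taken, which gave 6 samples per tissue and 18 RNA-Seq libraries. The samples of 1 animal are repeats within that animal, so a comparison of A2 with A1 describes 2 individuals and its p-values measure the spread between tissue samples. The libraries were made from total RNA of small pieces of bulk tissue, where fewer cells of a type and less RNA per cell cannot be told apart.

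In cerebral cortex, neurons depend on ion gradients for electrical signalling and are supported by astrocytes and by the myelin of oligodendrocytes. In kidney cortex, the epithelium of the tubules recovers ions, sugars and amino acids from the filtrate of the glomeruli. Hepatocytes, which make up most of the liver, secrete plasma proteins and carry out bile acid, drug and nitrogen metabolism. The table names genes by Ensembl identifier alone, and 0 identifiers had a match in the gene reference used here. The function of the members is therefore not given, the tissue labels were not checked against marker genes, and 4 members are named by identifier while the others are described by their levels.

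The sample liver A2-1 stood apart from the other liver samples, and the selection leaves it out. All liver values that follow rest on the other 5 liver samples, unless this sample is named. The relative depth of the libraries, estimated from the steps between low values, was 0.343 times the median library in brain A2-2 and 0.344 times in kidney A2-2. The deepest library was liver A1-1 with 2.31 times. On the scale of the deposited values, brain and kidney were shifted against liver over the 15207 genes that reached 1 RPKM in 3 or more samples, with a median log2 difference of 0.86 for brain minus liver and 0.89 for kidney minus liver. After scaling each library by the median ratio of its genes to their geometric mean over the libraries, these shifts were 0.08 and 0.03.

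Across the 46 members the median level was 101 RPKM in brain, 81.5 RPKM in kidney and 4.83 RPKM in liver. In brain the gene medians ran from 40.8 to 853 RPKM, with the middle 50% of them between 72.6 and 186 RPKM. In kidney they ran from 40.9 to 1473 RPKM, with the middle 50% between 56.6 and 164 RPKM. Most members were not absent from liver: 8 had a liver median below 1 RPKM, 30 lay from 1 to below 10 RPKM and 8 had at least 10 RPKM. The lower of the brain and kidney medians was 15 times the liver median at the middle member, with a range from 8.01 to 1429 times. This ratio was below 16 in 25 members, from 16 to below 32 in 5, from 32 to below 100 in 9, and at least 100 in 7. These values chose the members and were not tested. The members' median log2 difference was 4.47 for brain minus liver and 4.22 for kidney minus liver, which is 3.60 and 3.33 above the shifts of all genes.

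**Figure D1:**
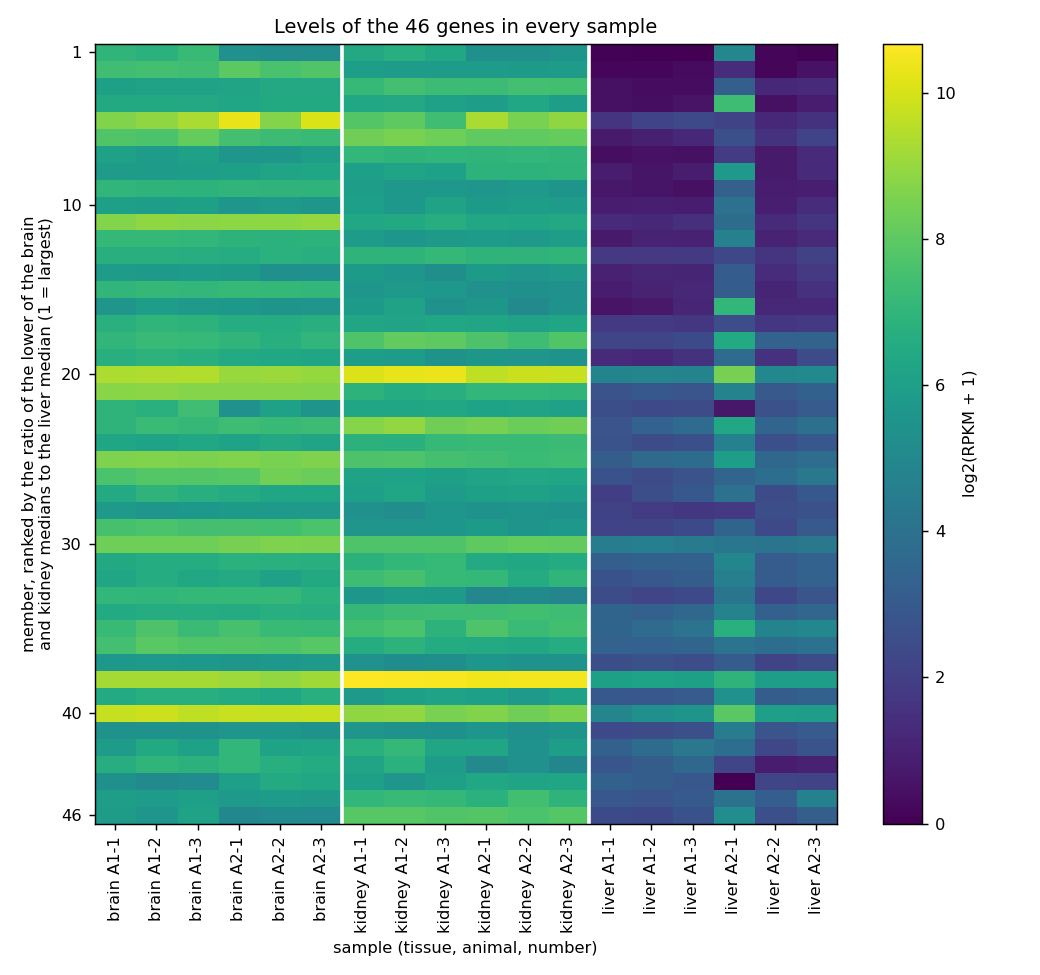
Levels of the 46 genes in all 18 samples as log2(RPKM + 1), 1 line per gene ordered by the ratio to liver and 1 column per sample. Brain and kidney columns are high throughout, 5 liver columns are low, and the column of liver A2-1 lies between them with a median of 15.3 RPKM.

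The single samples gave the same separation from liver as the medians, which is a description of the selected values. In all 46 members the lowest brain or kidney sample was above the highest of the 5 liver samples, with a ratio of at least 2.14 and a median ratio of 9.27. This ratio reached 4 in 39 members and 8 in 28. The members took 1.66% to 1.91% of the summed RPKM of a brain sample and 1.28% to 1.47% of a kidney sample. In the 5 liver samples their share was 0.0583% to 0.0870%. Of the 46 genes, 44 to 45 reached 40 RPKM in each brain sample, 43 to 46 in each kidney sample and 1 to 2 in each liver sample.

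The most abundant member, by the lower of its brain and kidney medians, had a median of 588 RPKM in brain, where its samples lay between 509 and 687 RPKM. In kidney its median was 988 RPKM with samples between 810 and 1322 RPKM, and in liver it was 27.6 RPKM with samples between 26.4 and 32 RPKM. Its brain median was 21.3 times its liver median, so that this gene was also detected well in liver. The next member by this order had 578 RPKM in brain, 1473 RPKM in kidney and 65.2 RPKM in liver, and the one after it had 853, 389 and 45.1 RPKM. Both lay close to the lower limit of the ratio, at 8.86 and 8.62 times the liver level. ENSMFAG00000003811 followed with 558 RPKM in brain and 315 RPKM in kidney but 2.13 RPKM in liver, a ratio of 148. In all, 12 members had at least 100 RPKM in both tissues and 10 had less than 50 RPKM in the lower of them.

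Ordered by the ratio to liver, the first member was ENSMFAG00000043667. Its median was 76.7 RPKM in brain, 64.3 RPKM in kidney and 0.045 RPKM in liver, a ratio of 1429 that rests on liver values of 0 to 0.094 RPKM. No other member had a value of 0 in any of the 5 liver samples. The second member had 187 RPKM in brain (167 to 253), 57.4 RPKM in kidney (54.9 to 61.5) and 0.14 RPKM in liver (0.12 to 0.429), a ratio of 410. The third and the fourth had ratios of 187 and 183, from liver medians of 0.382 and 0.408 RPKM. The denominators of all 4 ratios are below 1 RPKM, so these ratios are less precise than the levels.

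The brain median was higher in 26 members and the kidney median in 20. The brain to kidney ratio ran from 0.180 to 5.49 with a median of 1.17, and it lay within 2-fold in 26 members. All 6 brain samples were above all 6 kidney samples in 18 members, all 6 kidney samples were above all 6 brain samples in 11, and the samples overlapped in 17. The same counts were not made for other genes, so nothing particular to the members is read from them. With the median-of-ratios scaling the brain median was higher in 30 members. The direction of small differences between the tissues therefore moved with the scaling.

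**Figure D2:**
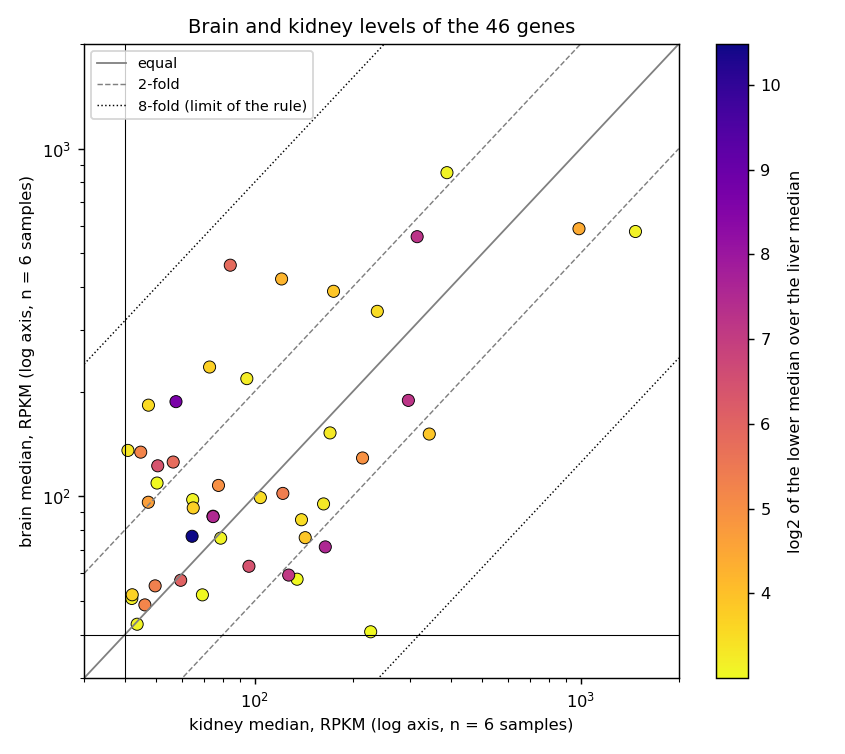
Median level of each of the 46 genes in brain (y axis) against kidney (x axis), both in RPKM on log axes, with solid lines at 40 RPKM and at equality, dashed and dotted lines at 2-fold and 8-fold, and colour for the log2 ratio of the lower median to liver. The members lie on both sides of the diagonal, 14 with at least 2-fold more in brain and 6 with at least 2-fold more in kidney.

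The member with the strongest tilt to brain had 462 RPKM there, with samples between 406 and 503 RPKM, and 84.2 RPKM in kidney, with samples between 76.0 and 98.9 RPKM. Its brain samples were all far above its kidney samples, and its liver median was 1.5 RPKM. The member with the strongest tilt to kidney had 227 RPKM there (197 to 237) and 40.8 RPKM in brain (30.5 to 70.0). Its liver median of 5.09 RPKM (4 to 8.37) left it just inside the selection. The most even member had 42.9 RPKM in brain (41.7 to 48.0), 43.6 RPKM in kidney (40.2 to 47.2) and 5.03 RPKM in liver (4.07 to 7.35), and its brain and kidney samples overlapped.

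Several genes lay close to the limits of the selection. The 2 members nearest to the limit of the ratio had 8.01 and 8.11 times the liver median, and the 2 nearest genes left out had 7.92 and 7.88 times. At the limit of the level, members with 40.8 and 40.9 RPKM stood beside 2 genes left out, 1 just under 40 RPKM and 1 at 39.3 RPKM. The balance between brain and kidney mattered little, since it alone kept out 2 genes, at 9.67-fold and 9.94-fold. The nearest members had 5.57-fold, in favour of kidney, and 5.49-fold, in favour of brain.

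The number of members depended on the scaling of the libraries. With the median-of-ratios scaling 15 genes met the conditions, and all 15 were among the 46. Of the genes that dropped out, 26 no longer reached 8 times the liver median and 12 no longer reached 40 RPKM in both tissues, with some failing both conditions. The lowest deposited ratio among the 15 was 21.3. The 25 members below 16 times the liver median therefore belonged to the group on the deposited scale and not on the other.

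The spread between samples of a tissue differed between the tissues. The coefficient of variation of a member, which is the SD over its samples divided by their mean, had a median of 11.1% in brain (2.81% to 61.0%) and of 12.8% in kidney (3.69% to 54.7%). For the other abundant genes these medians were 8.70% and 11.6%. In liver the members' median was 31.2% (5.28% to 106%) against 12.6% for the other abundant genes, whose liver levels were higher. Liver A2-3 was the highest of the 5 liver samples in 34 members, or 73.9%, against 44.9% of the 14853 tested genes with a value above 0 in these samples and 33.4% of the other abundant genes. Kidney A1-2 was the highest kidney sample in 17 members (37%), against 20.9% of the 15077 tested genes with a value above 0 in kidney and 42.2% of the other abundant genes. Kidney A2-2, a library of low depth, was the lowest in 18 members (39.1%), against 24.0% and 28.8%. The part of single samples or of depth in these differences was not tested.

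As a description of how the members varied together, each gene's log2(RPKM + 1) values were centred on the 6 means per tissue and animal, and Pearson's r was taken over the 17 samples for all 1035 pairs of members. The median r was 0.22, against 0.15 between pairs of the other abundant genes. Values above 0.7 were found for 71 pairs (6.86%, against 9.16%) and values below -0.7 for 10 pairs (0.966%, against 2.33%). All points share libraries and their scaling, so these coefficients do not separate the genes from the samples.

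The selection used medians over both animals and not the difference between A2 and A1. In brain and kidney both animals gave 3 samples, but the liver median rests on 3 samples of A1 and 2 of A2, so that the low level in liver was set more by A1 and the liver difference is not independent of the selection. With the samples of A1 alone, 56 genes met the conditions, 43 of them among the 46, and with those of A2 alone 41 genes did, 34 of them among the 46. These differences were tested with limma on log2(RPKM + 1) over all 15207 genes, with Benjamini-Hochberg adjustment over all of them and a call at an adjusted p below 0.05. In brain 11 of the 46 members differed between the animals (23.9%), where 20.7% of all genes and 15.5% of the other abundant genes did. Of these, 5 were higher in A2, against 9.41% of all genes and 10.7% of the other abundant genes, and 6 were lower (13%), against 11.3% and 4.86%. The members' share was near that of all genes and above that of the other abundant genes, and no test of either was made. The 5 higher members had log2 differences of 0.24 to 1.12 with a median of 0.37, and the 6 lower members had -1.72 to -0.24 with a median of -0.65. Without the sample brain A1-3 the number of calls in brain was 6, of which 2 were higher in A2, with 14.1% of all genes called. Without brain A1-1 or brain A2-3 it was 9, of which 3 were higher, with 14.6% and 15.4% of all genes called.

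In kidney 15 members differed (32.6%), where 24% of all genes and 27.4% of the other abundant genes did. In A2, 6 were higher (13%), against 10.7% of all genes and 9.15% of the other abundant genes, and 9 were lower (19.6%), against 13.4% and 18.2%. The log2 differences of the higher members were 0.23 to 1.17 with a median of 0.40, and those of the lower members -1.21 to -0.28 with a median of -0.51. This count was 8 without kidney A1-2, with 17.9% of all genes called. It was 9 without any one of brain A1-3, kidney A2-1, kidney A2-2, kidney A2-3 or liver A1-2, with 18.4% to 22.7% of all genes called. The number higher in A2 was lowest, at 2, without kidney A2-1.

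In liver, where the levels are low by selection and the values are therefore given as a description, 20 members differed (43.5%), where 23.5% of all genes and 34.7% of the other abundant genes did. In A2, 15 members were higher (32.6%), against 14.3% of all genes and 15.7% of the other abundant genes, and 5 were lower, against 9.16% and 19%. The higher members had log2 differences of 0.34 to 1.43 with a median of 0.69, and the lower members of -2.29 to -0.27 with a median of -0.91. Only 2 samples stand for A2 here, and 1 of them, liver A2-3, was the highest liver sample in most members. The split rested on single samples: without liver A2-3 there were 12 calls with 7 higher and 5 lower in A2 (12.4% of all genes called), and without liver A2-2 there were 23 calls with 21 higher and 2 lower (18.6%).

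Over the whole group of 46, called or not, the median absolute log2 difference between the animals was 0.18 in brain, 0.21 in kidney and 0.33 in liver. Over all genes it was 0.17, 0.17 and 0.19, and over the other abundant genes 0.13, 0.16 and 0.22. An absolute log2 difference of at least 1 was reached by 3 of the called members in brain (6.52%, against 1.76% of all genes and 0.667% of the other abundant genes). It was reached by 3 in kidney (6.52%, against 2.56% and 0.953%) and 6 in liver (13%, against 3.08% and 1.91%). In 14 members (30.4%) no tissue had a call, against 49.3% of all genes and 46.1% of the other abundant genes. All groups share 1 estimate of the spread, and with liver A2-1 in the fit the calls fell to 1 member in brain and 2 in kidney, with 16 in liver. Over all genes tested in that fit the called shares fell as well, to 8.77% in brain, 8.79% in kidney and 19.3% in liver. The brain differences of ENSMFAG00000043667, ENSMFAG00000033432 and ENSMFAG00000038158 then had adjusted p-values of 0.297, 0.132 and 0.0654 (limma) at the same log2 differences of -1.72, 1.12 and -1.37. The kidney differences of ENSMFAG00000043667 and ENSMFAG00000003811 had 0.562 and 0.0787, at the same -1.10 and 1.17.

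Brain alone had a call in 7 members (15.2%, against 14.6% of all genes and 9.63% of the other abundant genes). Kidney alone had a call in 11 (23.9%, against 17.9% and 21.4%). Both had a call in 4 and neither in 24. A call in either tissue was found in 22 members, in 5876 of the 15207 genes and in 388 of the 1049 other abundant genes. The 4 were 18.2% of the 22 members called in either tissue, near the 15.9% of all genes and the 16% of the other abundant genes called in either. The 4 members called in both had the same sign in both tissues (8.7%, where 4.33% of all genes were called so), 2 of them higher and 2 lower in A2. This number was 2 without brain A1-3 (2.87% of all genes) and 1 with liver A2-1 in the fit (1.35%). Opposite signs in brain and kidney, found for 1.8% of all genes, were called in 0 members by limma, and 1 member had opposite signs at an unadjusted p below 0.05 in both. The same sign in all 3 tissues, found for 1.64% of all genes, was also called in 0 members, with 1 member at an unadjusted p below 0.05 in each. The shares of 1.8% and 1.64% are of adjusted calls. All genes were not counted at the unadjusted threshold, so nothing is read from these 2 unadjusted counts. Over the 46 members the differences in brain and kidney had a Pearson's r of 0.443 and a Spearman's rho of 0.312, and 30 members (65.2%) had the same sign. For the other abundant genes r was 0.263 and rho 0.274, with the same sign in 55.3%, and over all genes r was 0.166 and rho 0.15, with the same sign in 54.5%. These are descriptions over genes that share their libraries.

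**Figure D3:**
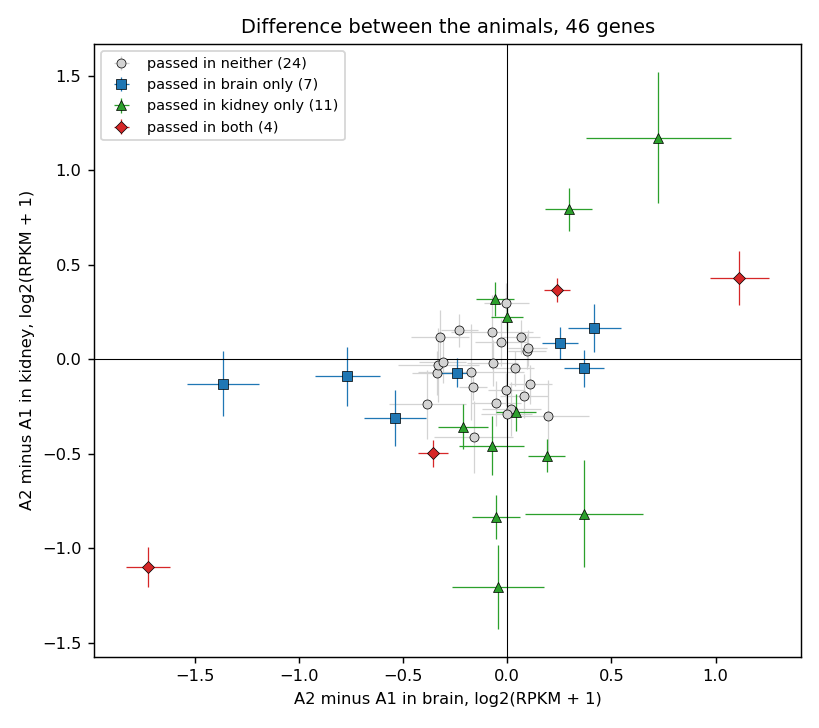
Log2 difference A2 minus A1 in kidney (y axis) against brain (x axis) for the 46 genes, each point 1 gene with its SE as bars, marked by the tissues in which limma called it. The 4 genes called in both tissues lie in the quadrants of equal sign, and 24 genes without a call in either lie around 0.

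The difference of the 2 animal differences, brain less kidney, was itself called in 11 members (23.9%), where 20.3% of all genes and 18.3% of the other abundant genes were called. In 3 of them (6.52% of the members) its absolute size was at least 1 on the log2 scale, against 4.29% of all genes and 1.33% of the other abundant genes. Of these 11, 3 were called in brain only, 5 in kidney only, 2 in both and 1 in neither, and 4 had estimates of opposite sign. Leaving out 1 sample lowered this count to between 5 and 7 for 10 of the brain and kidney samples, with 15.8% to 21.2% of all genes called in these fits. With liver A2-1 in the fit limma called it in 0 members, with 7.12% of all genes called. At an unadjusted p below 0.05 there were 2 members, and all genes were not counted at that threshold. The number of calls was 5 without brain A1-3, 6 without brain A1-1, brain A2-3, kidney A1-3 or kidney A2-3, and 7 without brain A2-1, kidney A1-1, kidney A1-2, kidney A2-1 or kidney A2-2.

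ENSMFAG00000043667, the member with the largest ratio to liver, also had the largest called difference between the animals in brain. In brain its samples had 126, 112 and 147 RPKM in A1 and 41.6, 36.3 and 36.0 RPKM in A2. In kidney they had 84.5, 105 and 83.6 RPKM in A1 and 40.1, 40.3 and 45 RPKM in A2. The animals did not overlap in either tissue, and A2 held nearly the same level in both. The log2 difference was -1.72 ± 0.11 (SE, adjusted p = 6.11e-08 by limma) in brain and -1.10 ± 0.11 (adjusted p = 2.36e-06) in kidney. The difference was larger in brain by -0.62 ± 0.15 on the log2 scale (adjusted p = 0.00825), a call that was lost at nearly the same size with a pseudocount of 0.1 (-0.63, adjusted p = 0.0716) and with liver A2-1 in the fit (-0.62, adjusted p = 0.889). In liver all 5 samples were at 0.094 RPKM or less, and the gene passed the filter through its brain and kidney levels. At such values the call hangs on the pseudocount (limma, adjusted p = 0.753, and 0.0249 with a pseudocount of 0.1). Nothing is therefore read from the liver difference of this gene. In the sample liver A2-1 this gene had 29.9 RPKM.

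ENSMFAG00000038158 was lower in A2 in brain. Its brain samples had 121, 108 and 169 RPKM in A1 and 41.0, 67.1 and 45.1 RPKM in A2, without overlap. Its kidney samples had 75.4, 76.7 and 83.1 RPKM in A1 and 72.3, 73.8 and 68.7 RPKM in A2. The kidney values of both animals lay between the brain values of A2 and those of A1. The log2 difference was -1.37 ± 0.17 (SE, adjusted p = 5.61e-05 by limma) in brain and -0.13 (adjusted p = 0.657) in kidney, and the difference between the tissues was -1.24 ± 0.24 (adjusted p = 0.00244, and 0.283 at the same size with liver A2-1 in the fit). In liver the samples had 4.92, 4.10 and 4.53 RPKM in A1 and 5.34 and 7.39 RPKM in A2, and no difference was called (adjusted p = 0.153).

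ENSMFAG00000033432 was higher in A2 in brain, with 39.9, 32.3 and 34.3 RPKM in A1 and 64.3, 90.1 and 81.1 RPKM in A2. In kidney it had 64.2, 46.6 and 64.2 RPKM in A1 and 82.0, 74.1 and 78.3 RPKM in A2. In liver the order was turned, with 8.90, 7.89 and 6.42 RPKM in A1 and 3.74 and 3.53 RPKM in A2. The animals overlapped in none of these tissues. The log2 difference was 1.12 ± 0.14 (SE, adjusted p = 6.51e-05 by limma) in brain, 0.43 ± 0.14 (adjusted p = 0.0405) in kidney and -0.91 ± 0.16 (adjusted p = 0.000699) in liver. The call in kidney was weak: without kidney A1-2 the log2 difference was 0.28 (adjusted p = 0.196), and the call was lost in 13 of 24 alternatives. The difference between brain and kidney was 0.69 ± 0.20 (adjusted p = 0.0258), and its call was lost in 9 of them, where its size was 0.58 to 0.69.

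ENSMFAG00000003811 was the most abundant of the 4 named members and had the largest SE. Its brain samples had 402.5, 477 and 639 RPKM in A1 and 1282, 408 and 1061 RPKM in A2. The sample brain A2-2 thus lay within the values of A1, and the log2 difference of 0.72 ± 0.35 (SE) was not called by limma (adjusted p = 0.161). Without brain A2-2 it was 1.23 (adjusted p = 0.00571). Without brain A2-1 it was 0.40 (adjusted p = 0.467), and without brain A2-3 it was 0.54 (adjusted p = 0.396). In kidney it had 223, 262 and 167 RPKM in A1 and 640, 368 and 480 RPKM in A2, without overlap, and the log2 difference of 1.17 ± 0.35 was called (adjusted p = 0.023). That call was lost without kidney A1-3 (adjusted p = 0.0797), without kidney A2-1 (0.0932) and without kidney A2-3 (0.0552). In liver it had 2.13, 3.47 and 4.15 RPKM in A1 and 1.30 and 1.98 RPKM in A2, with no call (adjusted p = 0.249).

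**Figure D4:**
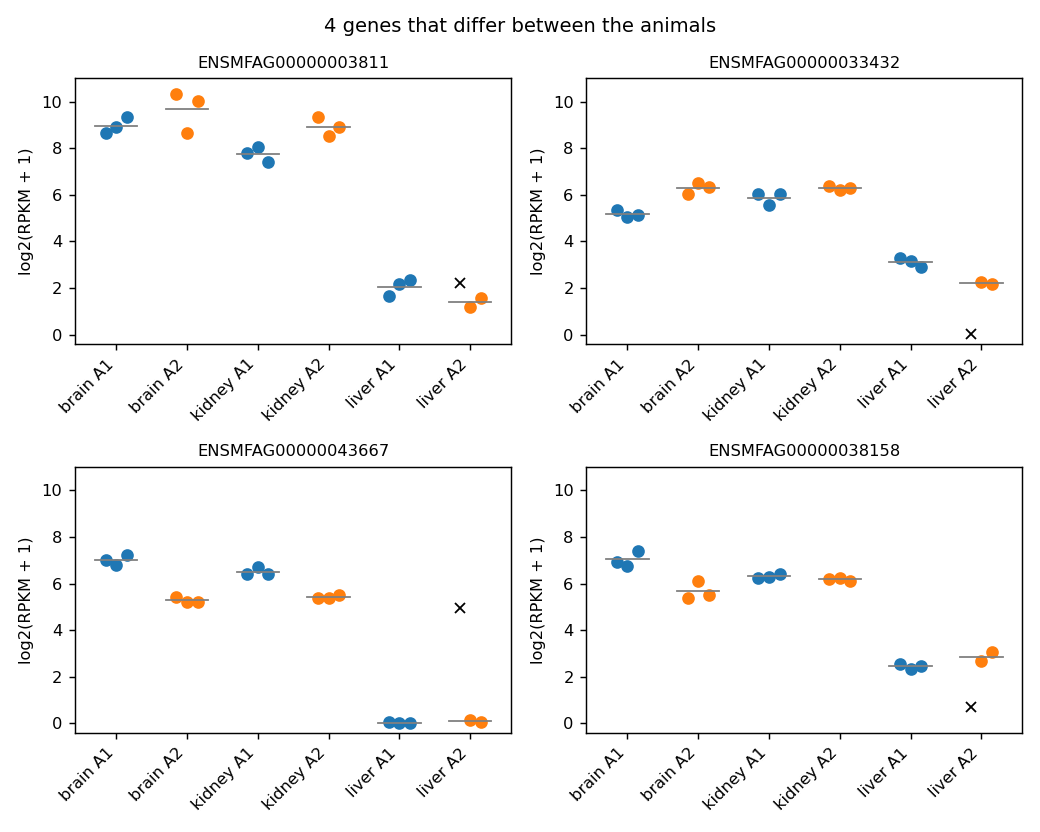
Levels of 4 genes in each sample as log2(RPKM + 1), by tissue and animal, with A1 in blue, A2 in orange, a grey line at the group mean and a cross for liver A2-1, which the mean leaves out. ENSMFAG00000043667 and ENSMFAG00000038158 are lower in A2 in brain, with 36.0 to 41.6 and 41.0 to 67.1 RPKM there.

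The 2 other members called in both brain and kidney had high levels. The most abundant member, with 588 RPKM in brain and 988 RPKM in kidney, was lower in A2 by log2 differences of -0.36 in brain (adjusted p = 0.00232, limma) and -0.50 in kidney (adjusted p = 0.000136). The member with 340 RPKM in brain and 238 RPKM in kidney was higher in A2 by 0.24 (adjusted p = 0.0143) and 0.36 (adjusted p = 0.000655). The latter was lower in A2 in liver, by -0.33 (adjusted p = 0.00292).

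Liver A2-1 was not used for the selection, and it held most members at levels between the other liver samples and the brain and kidney samples. The median of the 46 genes was 15.3 RPKM there, against 4.05 to 5.79 RPKM in the other liver samples. Of the members, 37 (80.4%) were above all other liver samples, where 47.6% of all genes and 40.8% of the other abundant genes were. At least 2 times the highest of the other 5 liver samples was reached by 29 members (63%), where 19.1% of all genes and 4.96% of the other abundant genes reached it. At least 40 RPKM was reached by 11 members, by 883 of the 15207 genes and by 529 of the 1049 other abundant genes. Liver A2-1 is 1 sample, so no test was made. The members were chosen by their low level in the other 5 liver samples, which by itself favours a left-out sample lying above them, so these shares are a description and nothing is read from their distance to those of genes not chosen in this way. The other abundant genes had a median of 40.7 RPKM over their liver medians, against 4.83 RPKM for the members.

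**Figure D5:**
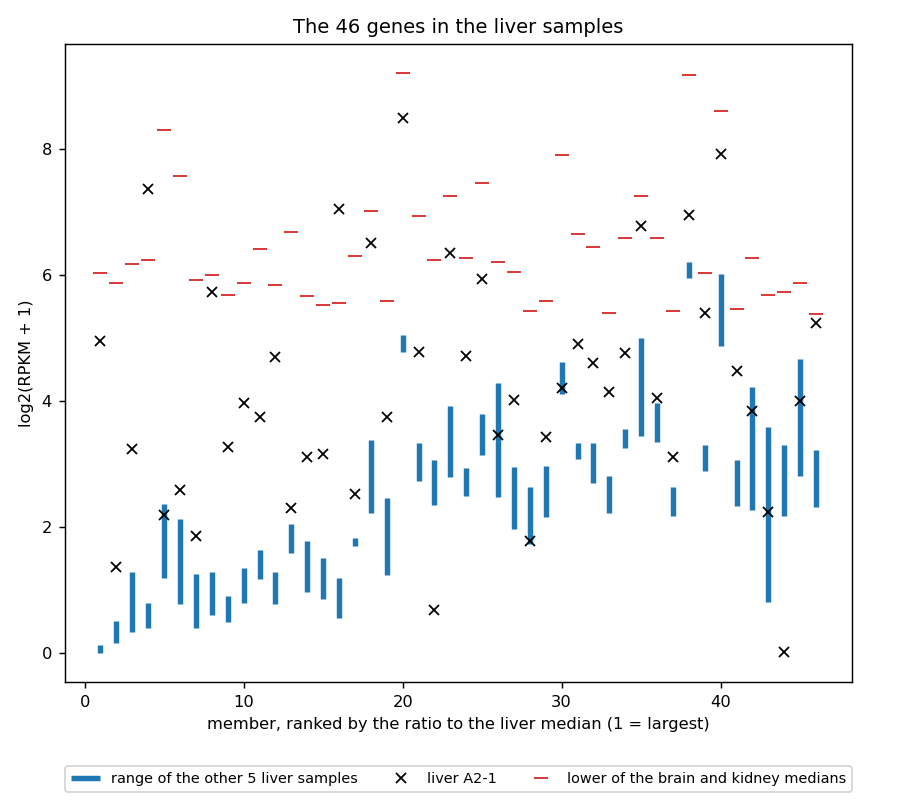
Levels of the 46 genes in liver as log2(RPKM + 1), ordered by the ratio to the liver median, with the range of 5 liver samples as a bar, liver A2-1 as a cross and the lower of the brain and kidney medians as a dash. The cross lies above the bar in 37 genes, under it in 2 and within it in 7.

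The members were not equally raised in liver A2-1. The highest value was 357 RPKM, in the most abundant member, whose other liver samples had 26.4 to 32 RPKM. In 10 members the level reached at least 50% of the lower of the brain and kidney medians. In 2 of these it was above both medians: 131 RPKM against 48.7 RPKM in brain and 46.1 RPKM in kidney, with 0.476 to 1.30 RPKM in the other liver samples, and 163 RPKM against 87.4 and 74.6 RPKM, with 0.323 to 0.735 RPKM in the other liver samples. In 12 members the level was still 8 times lower than the lower of the medians. ENSMFAG00000033432 had 0.009 RPKM in liver A2-1 and ENSMFAG00000038158 had 0.615 RPKM, both below all other liver samples. With liver A2-1 included in the liver median 41 genes met the conditions of the selection, 40 of them among the 46. Liver A2-1 was above the 3 liver samples of A1 in 14 of the 15 members called higher in A2, in 24 of the 26 members without a call in liver and in 1 of the 5 members called lower, where 3 were below them. For the members called higher this share was thus near that of the members without a call.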

How the data were processed

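RNA-Seq libraries of cerebral cortex, kidney cortex and liver were made by the authors. They checked the reads with FastQC 0.11.2 and aligned them with STAR 2.5.2a11 to the Ensembl version 92 genome. The sources name Cufflinks 2.2.114 and featureCounts, and do not say which gave the table. The authors deposited linear RPKM values for 29324 genes in 18 columns, with replicates not pooled, and these are not counts. The library kit differs between the labels and the methods, so the use of strand is uncertain. Total counts per library are unknown, so no intervals for single values were derived. Relative depth was estimated from the steps of low values and tested on simulated data. Identical values made up at most 19.2% of the genes in any pair of samples, zeros included.

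Tissue, animal and number came from the sample labels. Values were used as log2(RPKM + 1), which understates differences of low genes. The filter required 1 RPKM or more in 3 or more of 17 samples and left 15207 genes. They were fitted with limma 3.58.1 in R 4.3.3 (6 groups, eBayes with trend, Benjamini-Hochberg adjustment). The fit was tested on simulated data. Liver A2-1 was left out of the fit.

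The members, the lists and the tests were chosen with earlier results of these data known. The naming rule took extremes of level, ratio, balance and animal difference, and members of 19 gene lists. Without symbols, none of the lists, cell type markers included, could be applied, and the rule limits printing to 2 identifiers that rose and 2 that fell. These were taken among the largest animal differences called in brain or kidney, after their values were seen. Alternatives covered the pseudocount, the filter, the scaling, the trend, a log2 threshold, a replicate block, other selection limits and leaving out each sample.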

Additional observations from a re-analysis of the deposited data

Results flagged for a closer look

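Within tissues of 6 samples, a single sample far from the others by Dixon's criterion was found in 4 of 18 groups of values examined. In 3 of the 4 the sample was liver A2-1, which was already left out of the selection, and the groups overlap in their samples and genes. Chance marks about 1 in 20 independent groups, so that share is no measure for these. The members' median was 100.3 RPKM in kidney A1-2, against 80.3 to 84.2 RPKM in the other kidney samples. It was 15.3 RPKM in liver A2-1, against 4.05 to 5.79 RPKM in the other liver samples, and the members' share of the summed RPKM was 0.295% there, against 0.0583% to 0.0870%. ENSMFAG00000043667 had 29.9 RPKM in liver A2-1, against 0 to 0.094 RPKM. In that sample 29 members had at least 2 times the highest level of the other liver samples, for whose low levels the members were chosen.

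The difference between the animals was not the same in brain and kidney for 11 members (limma, adjusted p below 0.05). This is 23.9% of the members, near the 20.3% of all genes and the 18.3% of the other abundant genes. Among the named genes, the animal difference in brain less that in kidney was 0.69 on the log2 scale for ENSMFAG00000033432, -0.62 for ENSMFAG00000043667 and -1.24 for ENSMFAG00000038158. The part of library depth or of single samples in these values was not tested beyond leaving out each sample.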

How the results depend on the processing

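With all 18 samples in the fit, the calls between the animals were 1 member in brain (8.77% of all genes), 2 in kidney (8.79%), 16 in liver (19.3%) and 1 in both brain and kidney with the same sign (1.35%). The difference between brain and kidney was called by limma in 0 members (7.12%). At an unadjusted p below 0.05 there were 2 members, and all genes were not counted at that threshold. The adjusted p of ENSMFAG00000043667 in brain was then 0.297 at the same log2 difference of -1.72. With a pseudocount of 0.1, 7 members were called in brain (15.7% of all genes), 9 in kidney (20.7%), 24 in liver (27.6%) and 5 for the difference (14.6%). With an absolute log2 difference of at least 1, 3 were called in brain (1.76%), 3 in kidney (2.56%), 6 in liver (3.08%), 3 for the difference (4.29%) and 1 in both (0.138%). With median-of-ratios scaling the counts were 10 (19.3%), 14 (21.4%), 19 (28.6%) and 8 (18.2%). The numbers of members were 15 with that scaling, 106 at 4 times and 21 at 16 times the liver median. Leaving out each of 17 samples gave 6 to 14 calls in brain (14.1% to 21.6% of all genes), 8 to 15 in kidney (17.9% to 24.9%), 12 to 23 in liver (12.4% to 24.7%), 5 to 11 for the difference (15.8% to 21.2%) and 2 to 5 in both with the same sign (2.87% to 4.28%), and 41 to 51 members. The lowest counts in both tissues and in brain, 2 and 6, came without brain A1-3. The cause of these changes was not tested.

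Correlations of same-numbered samples of the 2 animals ran from -0.149 to 0.223, and those of differently numbered samples from -0.317 to 0.225. They use deviations from the means of 3 or 2 samples, which depend on each other. They therefore cannot settle whether the sample numbers pair the animals. With a replicate block, 12 members were called in brain (20.8% of all genes), 11 in kidney (24.1%), 22 in liver (23.5%), 10 for the difference (20.9%) and 3 in both (4.38%). For the named genes, the 10 called values gave 240 alternative values, of which 205 kept direction and call and 35 lost the call. Leaving out a sample of a tissue outside a contrast cannot change its log2 difference, and several other settings leave it the same. The genes were also picked for large called differences. These numbers are therefore a description and no measure of how firm the differences are. The 6 values without a call gave 144, of which 2 gained a call and 2 turned direction without one: ENSMFAG00000038158 in liver went from 0.41 to -0.32 with all 18 samples, and the difference of ENSMFAG00000003811 between brain and kidney went from -0.45 to 0.055 without brain A2-2, in a range from -0.77 to 0.055 over the samples left out.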
